A study of Mus musculus with 20 samples.

Results

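A set of 10 neuropeptide precursor genes outside the opioid family were followed across the 4 groups of a study of methamphetamine (Meth) and the HIV-1 protein Tat in the mouse brain. They are Tac1, Tac2, Cartpt, Npy, Sst, Cck, Vip, Nts, Crh and Hcrt, chosen by name as 10 of the 20966 gene symbols with usable values, through probes whose RefSeq identifier belongs to these symbols. Each of the 10 genes had 1 probe. All 20 arrays came from male C57BL/6J mice with the Teton-GFAP transgene, 5 mice per group. Tat+ mice also carried TRE-Tat86, so that doxycycline turned on Tat through the GFAP promoter, which is active mainly in astrocytes, and Tat− mice lacked it. Every mouse, including the controls, received doxycycline at 100 mg/kg daily for 7 days, together with Meth at 2 mg/kg (Tat−/Meth and Tat+/Meth) or saline (Tat−/Sal and Tat+/Sal). By the study's methods all groups then went 7 days without drug and were given 1 mg/kg Meth as a challenge, and the caudate putamen was taken 1 h later at an age of 3 to 5 months. The sample labels give a different account, with the left hemisphere of perfused brain taken 24 h after the last injection at 6 to 7 weeks of age.

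Neuropeptides are cut from larger precursors in dense core granules and act on G protein-coupled receptors, more slowly and over longer distances than glutamate or GABA. In the striatum, the precursor of substance P (Tac1) is a marker of projection neurons of the direct pathway, whereas somatostatin (Sst) and neuropeptide Y (Npy) are made together by a class of sparse interneurons. Cholecystokinin (Cck) is abundant in cortical neurons, and orexin (Hcrt) is made by neurons of the lateral hypothalamus.

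All 10 markers of striatal projection neurons, among them Drd1, Drd2 and Adora2a, were well above background on all 20 arrays. The arrays lay on 3 slides. All 5 Tat−/Meth arrays were on slide 1, which held no other group. Slide 2 held the 5 Tat−/Sal arrays and Tat+/Meth replicates 1 to 3, and slide 3 held the 5 Tat+/Sal arrays with Tat+/Meth replicates 4 and 5. The bright corner spots, which are control spots that carry no sample gene, read from 14.66 to 15.06 log2 units on slide 1, whereas those of slides 2 and 3 read from 16.80 to 17.42. The Tat−/Meth group and slide 1 therefore cannot be told apart in any comparison below. Values are log2 signals after each array was brought to a common 75th percentile, and they allow comparison of 1 gene between arrays but not of one gene with another.

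Of the 10 genes, 9 had an entry among the RefSeq promoter sequences (build GRCm38.p6, 250 bases before to 50 bases after a gene start), the exception being Crh. Since several peptide genes are known targets of the cAMP-responsive factor CREB, the cAMP response element was searched on both strands. The full palindrome TGACGTCA was in 2 of the 9 promoters, those of Sst (48 bases upstream) and Cartpt (112 bases upstream), and in 1.79% of all 32851 promoters. Its shorter core TGACG, which the palindrome contains on each strand, was in 6 of the 9 (Tac1, Cck, Vip, Nts, Cartpt and Sst) and in 20.8% of all promoters. The AP-1 site TGAGTCA was in the Nts promoter, against 5.2% of all, and the TATA box TATAAA was in those of Vip and Hcrt, against 13.6%. The 120 bases upstream of the listed start are printed for Hcrt, Sst and Cck, whose signals differed between groups, and for Cartpt and Vip, which show the other full site and a core beside a TATA box. Each run reads 5′ to 3′ along the gene's strand, and capitals mark the motifs named here.
Hcrt (chr11:100762932-100763051, minus strand): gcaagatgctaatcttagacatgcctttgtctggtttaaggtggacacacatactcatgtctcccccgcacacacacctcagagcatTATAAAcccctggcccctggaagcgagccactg
Sst (chr16:23890845-23890964, minus strand): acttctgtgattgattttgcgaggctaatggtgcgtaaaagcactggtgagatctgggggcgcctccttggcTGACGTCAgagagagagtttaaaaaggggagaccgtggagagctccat
Cck (chr9:121495695-121495814, minus strand): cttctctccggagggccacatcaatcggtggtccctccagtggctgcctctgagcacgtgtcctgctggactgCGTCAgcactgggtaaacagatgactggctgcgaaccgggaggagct
Cartpt (chr13:99900684-99900803, minus strand): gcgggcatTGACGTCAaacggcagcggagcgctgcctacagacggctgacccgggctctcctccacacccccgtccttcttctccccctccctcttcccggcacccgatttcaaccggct
Vip (chr10:5639098-5639217, plus strand): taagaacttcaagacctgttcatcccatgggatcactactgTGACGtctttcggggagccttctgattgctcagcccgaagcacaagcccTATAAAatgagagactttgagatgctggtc
These matches are letters in a window and were not tested as binding sites. For Sst, Cartpt and Vip the RefSeq gene span begins further upstream than the listed start, so that other transcripts may cover part of the window.

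**Figure D1:**
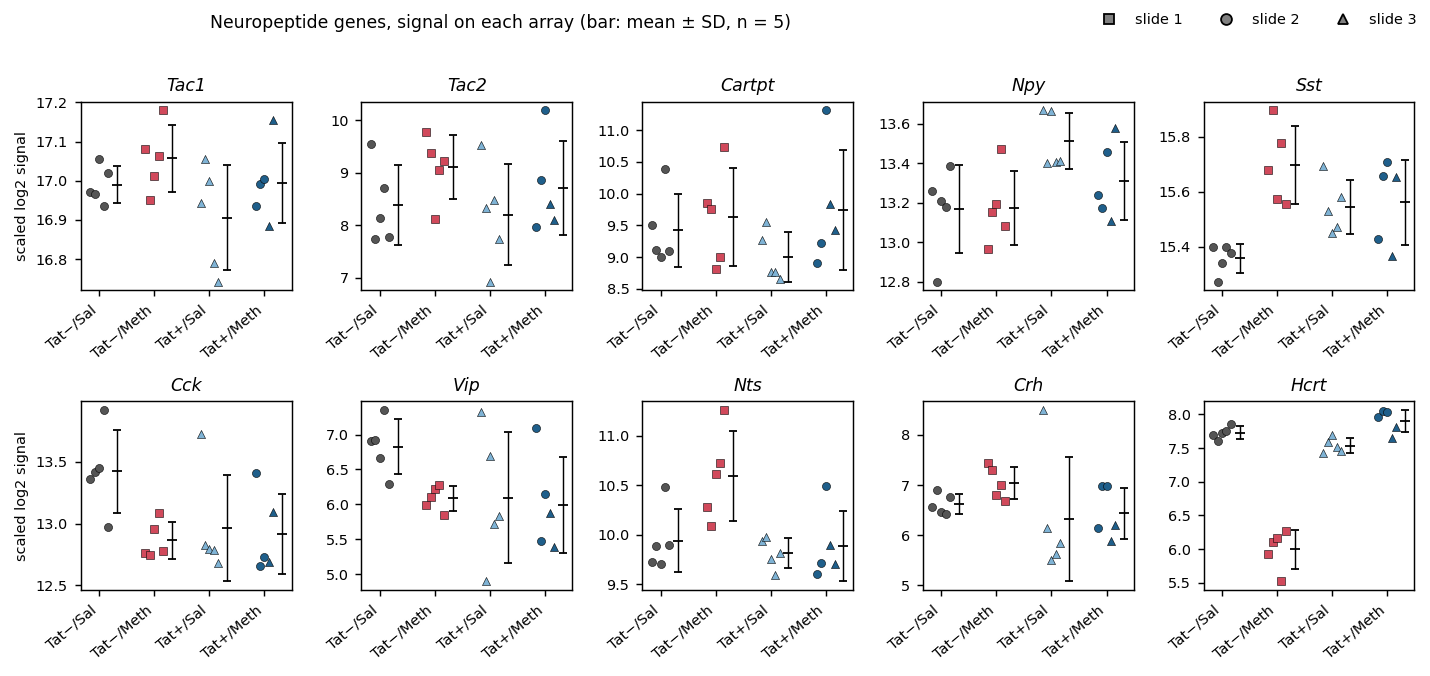
Scaled log2 signal (vertical axis, 1 panel per gene, axes not starting at 0) of the 10 peptide genes on each of the 20 arrays, by group, with the mean ± SD of 5 arrays as a bar and the slide as the marker shape. The 5 Tat−/Meth arrays sit between 5.52 and 6.26 for Hcrt, below all others, whereas the groups overlap for Tac1, Tac2 and Cartpt.

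Of these genes 8 were well above background on all 20 arrays, Crh on 18 and Vip on 16, and all 10 passed the limit for testing, a mean of 6 log2 units in at least 1 group. In Tat−/Meth compared with Tat−/Sal mice, which asks for the effect of earlier Meth without Tat, Sst and Nts were higher and Cck and Hcrt were lower at an adjusted p under 0.05. These 4 of 10 genes stand beside 50.3% of the 15098 genes tested in that comparison. Only Hcrt also changed more than 2-fold, against 6.85% of all genes. The groups did not overlap for Hcrt, Sst and Vip, 3 of 10, against 36.2% of all genes. The median change of the 10 genes was 0.14 log2 units, and that of all genes was 0.14.

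Hcrt, which encodes the wake-promoting orexins, had the largest change of the 10 genes in this comparison. It read 7.69, 7.60, 7.72, 7.76 and 7.86 log2 units on the Tat−/Sal arrays and 5.92, 6.11, 6.16, 5.52 and 6.26 on the Tat−/Meth arrays. It read 7.42, 7.59, 7.69, 7.51 and 7.46 in Tat+/Sal and 7.96, 8.04, 8.03, 7.65 and 7.81 in Tat+/Meth. Every Tat−/Meth value thus lay below every value of the other 3 groups. The difference of Tat−/Meth from Tat−/Sal was −1.73 ± 0.11 log2 units (SE), a 3.32-fold lower signal with an adjusted p of 6.85e-10 in limma. With normexp background correction the same difference was −0.89, which is under 2-fold. The 5 Tat−/Meth signals of Hcrt were well above background but as low as those of Vip in that group (5.84 to 6.28). Tat+/Meth exceeded Tat−/Meth by 1.90 ± 0.11 log2 units (adjusted p = 1.67e-10). In a bulk sample, fewer cells of a type and less RNA per cell cannot be told apart. Hcrt had 1 probe, and whether its signal came from orexin neurons in the sample was not tested.

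The slides and the hypothalamic markers were set beside the Hcrt values. Within the Tat+/Meth group, Hcrt read 7.96 to 8.04 on slide 2 and 7.65 to 7.81 on slide 3. Pmch, which marks neighbouring neurons of the lateral hypothalamus, did not reach the limit for testing and was well above background on 3 Tat−/Sal, 2 Tat−/Meth, 2 Tat+/Sal and 0 Tat+/Meth arrays. Of the 8 hypothalamic markers, 5 were tested and 1, Nr5a1, changed, by −0.95 ± 0.15 log2 units (adjusted p = 3.45e-05). The other 4 had positive differences and did not pass the test, Avp at 1.03 ± 0.65, Oxt at 0.96 ± 0.56, Agrp at 0.54 ± 0.45 and Trh at 0.06 ± 0.13. The median of the 5 was 0.54 log2 units against 0.14 for all genes. Of all genes, 50.3% passed in Tat−/Meth against Tat−/Sal. By its Tat−/Sal mean of 10.63 log2 units, Trh weighed most in the summed signal of the 8 markers. That sum was 11.44 to 11.69 log2 units in Tat−/Meth and 11.31 to 11.49 in Tat−/Sal. In Tat+ mice it was 11.03 to 12.56 with saline and 11.22 to 11.75 with Meth. The part of these markers in the Hcrt difference was not tested.

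Sst is the defining peptide of one class of striatal interneurons, and its probe was spotted 10 times per array, with an SD between spots of 0.015 to 0.040 log2 units. It read 15.40, 15.27, 15.34, 15.40 and 15.38 in Tat−/Sal and 15.68, 15.90, 15.57, 15.78 and 15.56 in Tat−/Meth. The means of the Tat+ groups lay between, with arrays at 15.45 to 15.69 (Tat+/Sal) and 15.37 to 15.71 (Tat+/Meth). Both overlapped Tat−/Meth, and Tat+/Meth overlapped Tat−/Sal, whereas all Tat+/Sal arrays lay above those of Tat−/Sal. Tat−/Sal had the lowest mean and the smallest SD of the 4 groups. Compared with Tat−/Sal, Sst was higher in Tat−/Meth by 0.34 ± 0.08 log2 units (adjusted p = 1.30e-03), a 1.27-fold difference that turned to −0.081 (adjusted p = 0.601) without scaling of the arrays. With median scaling it was 0.46 and lost its call (adjusted p = 0.0633). The median change of all genes was 0.14 with scaling to the 75th percentile, 0.26 with median scaling and −0.29 without scaling. Relative to that median, the Sst change was 0.20 in all 3 settings. These settings shift all genes of an array alike, so near-equal values were fixed in advance. With quantile normalization the relative change was 0.31.

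Markers of interneurons were read beside Sst. Of 10 markers 9 were tested in Tat−/Meth against Tat−/Sal, and 3 rose and 1 fell, beside 50.3% of all genes that passed the test. Without scaling Gad1 turned to −0.12, and Lhx6 and Reln differed by 0.017 and 0.092. Those that rose were Gad1, the main GABA-synthesizing enzyme (0.30 ± 0.07), Lhx6, a transcription factor of the Sst and parvalbumin lineages (0.44 ± 0.11), and Reln (0.51 ± 0.18), and Chat, the enzyme of cholinergic interneurons, fell by 0.45 ± 0.12. Gad1 and Gad2 serve GABA synthesis in any GABA neuron and so are not specific to interneurons. With Tat−/Sal means of 15.36 and 15.07 log2 units they weighed most in the summed signal of the 10 markers, followed by Lhx6 at 14.85. In Tat−/Meth the mean of Gad2 was lower, at 14.96, and that of Lhx6 higher, at 15.29. The summed signal was taken only after scaling of the arrays, on which the direction of Gad1 depended. That sum was 16.96 to 17.11 log2 units in Tat−/Meth and 16.70 to 16.91 in Tat−/Sal. In Tat+ mice it was 16.72 to 16.87 with saline and 16.72 to 16.84 with Meth. The part of the 10 markers in the Sst difference was not tested. Npy, which the same interneurons make, read 12.80 to 13.39 in Tat−/Sal and 12.97 to 13.47 in Tat−/Meth, and its difference was 0.01 ± 0.12 log2 units (adjusted p = 0.968), and −0.41 without scaling (adjusted p = 0.0106).

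Nts encodes neurotensin, a peptide that interacts closely with dopamine signalling. It read 9.72, 9.89, 9.71, 10.49 and 9.90 in Tat−/Sal and 10.29, 10.09, 10.61, 10.73 and 11.26 in Tat−/Meth. Tat+/Sal arrays read 9.93, 9.98, 9.76, 9.59 and 9.82, and Tat+/Meth arrays 9.61, 9.72, 10.49, 9.90 and 9.70. The Tat−/Meth values were the highest except that Tat−/Sal replicate 4 and Tat+/Meth replicate 3 reached into their range. Nts exceeded its Tat−/Sal level by 0.65 ± 0.20 log2 units in Tat−/Meth (adjusted p = 0.0116), and 0.71 ± 0.20 lower in Tat+/Meth than in Tat−/Meth (difference −0.71, adjusted p = 6.19e-03). Without scaling these differences were 0.23 (adjusted p = 0.403) and −0.37 (adjusted p = 0.205). The difference from Tat−/Sal also lost its call in the adjusted t-test of the methods (adjusted p = 0.0586) and at their stricter limit of 0.01.

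Cck read 13.36, 13.41, 13.45, 13.92 and 12.97 in Tat−/Sal and 12.76, 12.74, 12.95, 13.09 and 12.77 in Tat−/Meth. It read 13.73, 12.82, 12.79, 12.78 and 12.68 in Tat+/Sal and 13.41, 12.65, 12.73, 12.69 and 13.09 in Tat+/Meth. Tat−/Sal had the highest mean, and arrays of the other 3 groups reached into its range. The difference of Tat−/Meth from Tat−/Sal was −0.56 ± 0.20 log2 units (adjusted p = 0.0238). It was −0.44 without Tat−/Sal replicate 4 (adjusted p = 0.0760), the array with the highest Cck signal of that group, and −0.44 with median scaling (adjusted p = 0.145).

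Markers of cortical glutamatergic neurons were read beside Cck. Of 8 such markers 7 were tested, and in Tat−/Meth against Tat−/Sal Neurod2 alone fell, by 1.22 ± 0.37 log2 units (difference −1.22, adjusted p = 0.0111). Of all genes, 50.3% passed in that comparison. Slc17a7 differed by −0.85 ± 0.57 and Tbr1 by −0.68 ± 0.47, neither past the test, and Cux2 and Rorb by 0.06 and 0.07. The median difference of the 7 markers from Tat−/Sal was −0.68 in Tat−/Meth, −0.79 in Tat+/Sal and −0.72 in Tat+/Meth, against 0.14, −0.013 and −0.015 for all genes, and in both Tat+ groups none of the 7 passed the test. By its Tat−/Sal mean of 10.56 log2 units, Rorb weighed most in the summed signal of the 8 markers. That sum ranged from 11.29 to 12.14 log2 units in Tat−/Sal and from 11.19 to 11.47 in Tat−/Meth. The Tat+ groups ranged from 11.11 to 12.02 with saline and from 11.09 to 11.31 with Meth. The highest sums were those of Tat−/Sal replicate 4 and Tat+/Sal replicate 1, the arrays with the highest Cck signal in their groups. Neurod2 was also the gene whose signal followed that of Cck most closely between mice of a group. The part of cortical tissue in the Cck difference was not tested.

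Vip and Crh mark other interneuron classes and were near background on some arrays. Vip read 6.91, 6.92, 6.67, 7.35 and 6.29 in Tat−/Sal and 5.99, 6.11, 6.21, 6.28 and 5.84 in Tat−/Meth. These groups did not overlap, but the difference of −0.74 ± 0.37 log2 units did not pass the test (adjusted p = 0.100). It passed without scaling (−1.16, adjusted p = 0.0195), with slide as a random block (−0.79, adjusted p = 0.0341) and in the adjusted t-test of the methods. Vip was not well above background on 1 Tat−/Meth, 2 Tat+/Sal and 1 Tat+/Meth array. Crh, the stress peptide corticotropin-releasing hormone, read 6.42 to 6.90 in Tat−/Sal and 6.68 to 7.43 in Tat−/Meth, a difference of 0.42 ± 0.41 (adjusted p = 0.411). In Tat+/Sal it read 8.50 on replicate 1 and 5.49 to 6.15 on the other arrays, 2 of which were not well above background.

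The tachykinin genes and Cartpt did not pass the test in any comparison as fitted here. Tac1 varied least, from 16.74 to 17.18 log2 units over all 20 arrays, and its difference between Tat−/Meth and Tat−/Sal was 0.07 ± 0.07 (adjusted p = 0.403). That difference depended on the scaling, at 0.28 with quantile normalization (adjusted p = 5.77e-04) and −0.35 without scaling (adjusted p = 3.03e-03). With quantile normalization Tac1 differed by −0.33 between Tat+/Meth and Tat−/Meth (adjusted p = 9.29e-05), against −0.06 ± 0.07 in the fit reported here. Tac2, the neurokinin B precursor, spread over 7.73 to 9.55 in Tat−/Sal and 8.12 to 9.78 in Tat−/Meth, and in Tat+ mice over 6.92 to 9.52 with saline and 7.97 to 10.19 with Meth. Cartpt, whose peptide CART is known to respond to psychostimulants, spread over 9.01 to 10.39 in Tat−/Sal and 8.81 to 10.74 in Tat−/Meth, and in Tat+ mice over 8.65 to 9.56 with saline and 8.90 to 11.31 with Meth. The SD of these genes within a group was up to 0.96 log2 units for Tac2 and 0.94 for Cartpt, against at most 0.13 for Tac1. The Cartpt difference of Tat+/Meth from Tat+/Sal was 0.74 ± 0.41 log2 units (adjusted p = 0.485).

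**Figure D2:**
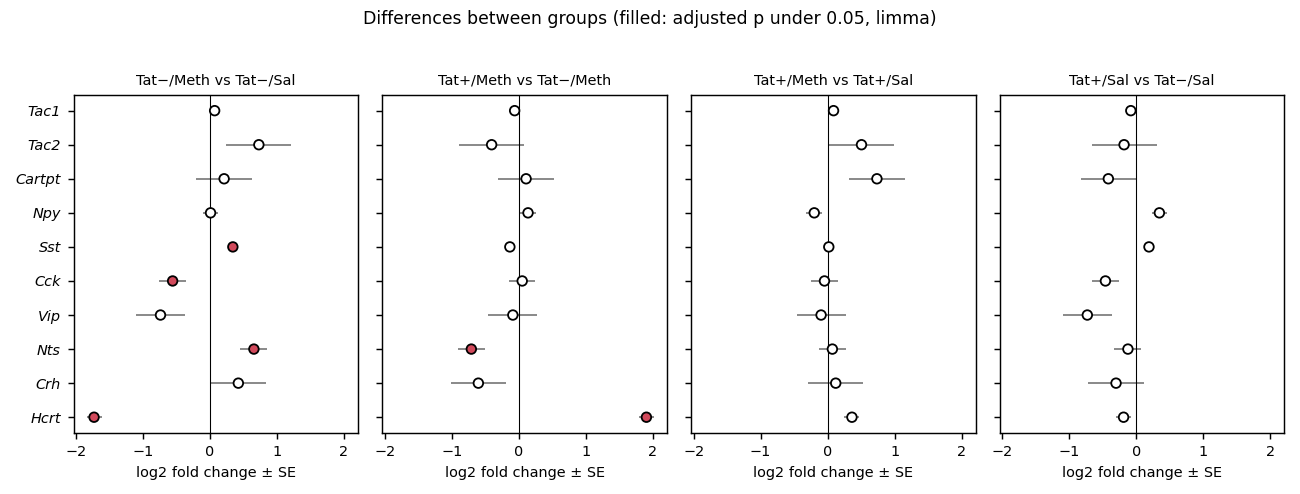
Log2 fold change ± SE (horizontal axis) of each of the 10 genes in 4 comparisons, with 5 arrays per group and filled points at an adjusted p under 0.05 in limma. Hcrt differs by −1.73 and 1.90 in the comparisons with Tat−/Meth, and no point is filled in the comparisons without it.

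In Tat+/Meth compared with Tat−/Meth, 2 of the 10 genes passed the test, Hcrt upward and Nts downward, against 54.4% of all genes. One of them, Hcrt, exceeded 2-fold, against 7.23% of all genes, and Hcrt was also the 1 gene whose groups did not overlap, against 38.0%. This comparison shares the Tat−/Meth arrays with that of Tat−/Meth and Tat−/Sal.

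Among Tat+ mice, none of the 10 genes passed the test between the Meth and saline groups, against 0.00% of all genes in limma. At an unadjusted p under 0.05 (share of all genes not counted) there was 1 gene, Hcrt, at 0.36 ± 0.11 log2 units (adjusted p = 0.241). On slide 3 alone, which holds both groups, its difference was 0.20 and did not pass the test. None of the 10 genes had groups that did not overlap, against 2.28% of all genes.

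The effect of Tat without earlier Meth was read from Tat+/Sal and Tat−/Sal mice, which share no slide. None of the 10 genes passed the test, against 1.40% of all genes, and 3 had an unadjusted p under 0.05 (share of all genes not counted). Npy was 0.34 ± 0.12 log2 units higher in Tat+/Sal (adjusted p = 0.111), at 13.67, 13.40, 13.66, 13.41 and 13.41 against 13.26, 12.80, 13.21, 13.18 and 13.39. Sst was 0.19 ± 0.08 higher (adjusted p = 0.178). Npy and Sst were the 2 genes whose groups did not overlap, against 4.85% of all genes. With slide as a random block Npy passed the test (0.35, adjusted p = 0.0195), and with slide as a fixed block it did not (0.29, adjusted p = 0.898). Cck differed by −0.46 ± 0.20 (adjusted p = 0.192), and by −0.65 without Tat+/Sal replicate 1 (adjusted p = 0.0463), whose Cck and Crh signals stood apart from the other 4 arrays and whose summed hypothalamic and cortical markers were the highest of its group.

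Between Tat+/Meth and Tat−/Sal mice none of the 10 genes passed the test, against 0.00% of all genes in limma. At an unadjusted p under 0.05 (share of all genes not counted) there were 3 genes, Sst (0.20 ± 0.08), Cck (−0.51 ± 0.20) and Vip (−0.83 ± 0.37), each with an adjusted p of 0.640. On slide 2, which holds 3 Tat+/Meth arrays and all Tat−/Sal arrays, the differences were 0.24, −0.49 and −0.59. No gene had groups that did not overlap, against 1.68% of all genes.

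The interaction, that is, how far the Meth difference of Tat+ mice departs from that of Tat− mice, passed the test for 2 of the 10 genes, against 36.0% of all genes. It was 2.10 ± 0.16 log2 units for Hcrt (adjusted p = 1.64e-08), the 1 gene above 2-fold, against 7.44% of all genes. For Sst it was −0.32 ± 0.11 (adjusted p = 0.0264), and without scaling it turned to 0.16 (adjusted p = 0.462). The Sst interaction lost its call when any of 4 arrays was left out, Tat−/Meth replicate 2 (adjusted p = 0.0515), Tat+/Meth replicate 1 (0.0522) or 4 (0.0505) or Tat+/Sal replicate 1 (0.0518). The interaction of Nts was −0.58 ± 0.28 (adjusted p = 0.119).

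Receptors and binding proteins of these peptides were read as a list of 26 genes, of which 22 were tested and 2, Npy6r and Hcrtr2, were well above background on no array. In Tat−/Meth against Tat−/Sal, 6 rose, 2 of which turned downward without scaling, 4 fell and 12 did not pass the test. The median of the 22 was 0.13 log2 units against 0.14 for all genes, of which 50.3% passed. Sstr5, Npy4r and Vipr2 are described here. Sstr5, a somatostatin receptor, differed by −2.21 ± 0.14 log2 units (adjusted p = 6.26e-10), with 14.98 to 15.63 in Tat−/Sal and 12.81 to 13.27 in Tat−/Meth. Npy4r, a receptor of the neuropeptide Y family, was well above background on 0 of the 5 Tat−/Meth arrays. Its signal was higher in Tat−/Sal and in Tat+/Meth (adjusted p = 5.31e-05 and 4.80e-04). Reckoned against the lowest signals of any probe well above background on the Tat−/Meth arrays, it was 2.94-fold and 2.09-fold higher. These are not strict lower bounds for this probe, as Vip at 5.84 on a Tat−/Meth array was not well above background. The difference of Tat−/Meth from Tat−/Sal was as small as −0.74 log2 units among the alternatives. With normexp correction that of Tat+/Meth from Tat−/Meth was 0.39 log2 units (adjusted p = 0.149). Npy4r read 6.13 to 8.51 in Tat−/Sal (SD 0.96), against an SD of 0.09 in Tat+/Meth, so the 2.94-fold value leans on the brightest array. Vipr2, a receptor of Vip, differed by 1.41 ± 0.55 (adjusted p = 0.0403), and by 0.73 without Tat−/Meth replicate 3 (adjusted p = 0.0937), and it lost its call in 12 of 33 alternatives. Hcrtr1, the orexin receptor detected here and named after its values were seen, was lower beside Hcrt, by −0.88 ± 0.24 (adjusted p = 4.56e-03).

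The receptor list held 4 genes that rose and 8 that fell in Tat+/Meth against Tat−/Meth, and 3 of the 8 turned upward without scaling. Of all genes, 54.4% passed in that comparison. There Sstr5 differed by 2.63 log2 units (adjusted p = 5.35e-11) and Vipr2 by −1.33 (adjusted p = 0.0480). The Vipr2 difference was −0.65 without Tat−/Meth replicate 3 (adjusted p = 0.126), and it lost its call in 24 of 33 alternatives. In the interaction 3 rose and 3 fell, beside 36.0% of all genes that passed. Among those that rose were Sstr5 (2.24, adjusted p = 1.24e-07) and Sstr4 (1.28, adjusted p = 8.68e-07), another somatostatin receptor. Npy4r also passed (adjusted p = 4.73e-04), but its size has no measured value, as its Tat−/Meth signals were not well above background. None of the 22 passed the test in the 3 comparisons without Tat−/Meth arrays.

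All 15 genes of peptide processing and dense core granules were well above background on all arrays and were tested. In Tat−/Meth against Tat−/Sal 4 rose, all of which turned downward without scaling, 1 fell and 10 did not pass the test. The median of the 15 was 0.04 log2 units against 0.14 for all genes, of which 50.3% passed. Cpe, the carboxypeptidase that trims peptide precursors, differed by −0.57 ± 0.06 (adjusted p = 5.29e-07), with readings of 18.19 to 18.39 in Tat−/Sal against 17.65 to 17.86 in Tat−/Meth. Over the alternatives this difference kept its call but ranged from −0.99 to −0.20. The granule proteins chromogranin A (Chga, 0.35 ± 0.09, adjusted p = 4.02e-03) and secretogranin II (Scg2, 0.31 ± 0.12, adjusted p = 0.0314) were higher, and without scaling these turned to −0.071 and −0.11. In Tat+/Meth against Tat−/Meth 2 rose and 5 fell, 3 of which turned upward without scaling, beside 54.4% of all genes that passed. Cpe differed by 0.58 (adjusted p = 4.23e-07), Pcsk1n, an inhibitor of prohormone convertase 1, by 0.43 (adjusted p = 2.65e-03) and Chga by −0.43 (adjusted p = 6.83e-04). The call of Pcsk1n was lost with median scaling (0.28, adjusted p = 0.198) and that of Chga without scaling (−0.093, adjusted p = 0.609). That of Cpe was kept, with differences from 0.15 to 0.92 over the alternatives. In the interaction 1 rose and 3 fell, beside 36.0% of all genes that passed. The 1 that rose was Cpe (0.61, adjusted p = 2.82e-05). It lost its call with the mean over the probes of a gene (0.19, adjusted p = 0.0525) and with median scaling (0.38, adjusted p = 0.203). None of the 15 passed the test in the 3 comparisons without Tat−/Meth.

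Of 29 other neuropeptide genes 15 were tested, and 4 (Ucn, Ucn2, Ucn3 and Qrfp) were well above background on no array. In Tat−/Meth against Tat−/Sal 1 rose, 4 fell and 10 did not pass the test, with a median of −0.06 log2 units. Of all genes, 50.3% passed in that comparison. Neuropeptide B (Npb) differed by −2.03 ± 0.25 (adjusted p = 2.47e-06), galanin (Gal) by −1.59 ± 0.09 (adjusted p = 7.43e-11) and Npff by −1.19 ± 0.08 (adjusted p = 1.54e-09). Gal read 10.33 to 10.64 in Tat−/Sal and 8.66 to 9.06 in Tat−/Meth. In Tat+/Meth against Tat−/Meth 5 rose and 2 fell, beside 54.4% of all genes that passed, with Npb at 2.43, Gal at 1.76 and Npff at 1.20. In the interaction 5 rose and 1 fell, beside 36.0% of all genes. None of the 15 passed the test in the comparisons without Tat−/Meth.

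**Figure D3:**
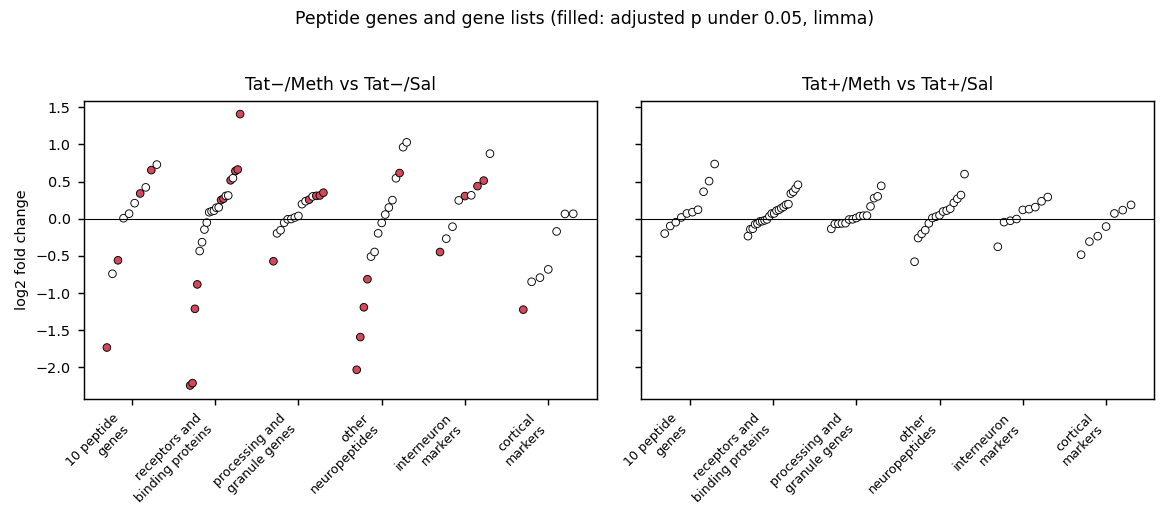
Log2 fold change (vertical axis) of the 10 peptide genes and of the tested genes of 5 lists, with Meth compared with saline in Tat− mice (left) and in Tat+ mice (right), 1 point per gene sorted within its list, filled at an adjusted p under 0.05 in limma. In Tat− mice 6 receptor genes rose and 4 fell, beside 50.3% of all genes that passed, and in Tat+ mice no point is filled.

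Whether the peptide genes varied together between mice of 1 group was asked for the 8 genes well above background on all arrays, with values centred on the mean of their group on their slide. Of 28 pairs 21 had a positive Pearson correlation over the 20 arrays, with a median r of 0.14, and no pair passed an adjusted p of 0.05 in a two-sided permutation test (100000 resamples). At an unadjusted p under 0.05 there were 3 pairs. Tac2 and Cartpt had r = 0.65 (permutation p = 9.37e-03, adjusted p = 0.216) and a Spearman rho of 0.72 (permutation p = 1.99e-03, adjusted p = 0.0557), with r = 0.71 without the 2 arrays farthest from the median of Tac2. Cartpt and Nts had r = 0.70 (permutation p = 0.0158, adjusted p = 0.216) and rho = 0.47 (permutation p = 0.110, adjusted p = 0.770), and r fell to 0.46 without the 2 farthest arrays. Tac2 and Sst had r = 0.53 (permutation p = 0.0231, adjusted p = 0.216), rho = 0.50 (permutation p = 0.0416, adjusted p = 0.583) and r = 0.42 without the 2 farthest arrays. Npy and Sst, the pair made by the same interneurons, had r = 0.50 (permutation p = 0.0679, adjusted p = 0.447), rho = 0.51 (permutation p = 0.0822, adjusted p = 0.767) and r = 0.45 without the 2 farthest arrays.

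The same centred values gave, among 13981 genes, those most like each peptide gene over the 20 arrays, as a description in which all points share arrays and dissection. Cck was most like Neurod2 (r = 0.89) and Tbr1 (r = 0.82), both transcription factors of cortical glutamatergic neurons, and Ccn2 (r = 0.82). Tac2 was most like Dlk1 (r = 0.95), then Gpx3 and Btbd11 (r = 0.88 and 0.87). Cartpt was most like Tcerg1l (r = 0.92), Lbhd2 and Alk, and Nts most like Fabp7 (r = 0.87), N4bp2l1 and Znrf3. Tac1 was most like Scp2 (r = 0.90), Ubl4a and Taldo1, and Hcrt most like Gm10653 (r = 0.84), Lrmp and Ttc38. The closest genes were less alike for Sst (Zfp319 at r = 0.81, Dpm2 and Wdr6) and Npy (Fam163b at r = 0.79, Hs3st4 and Norad).

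**Figure D4:**
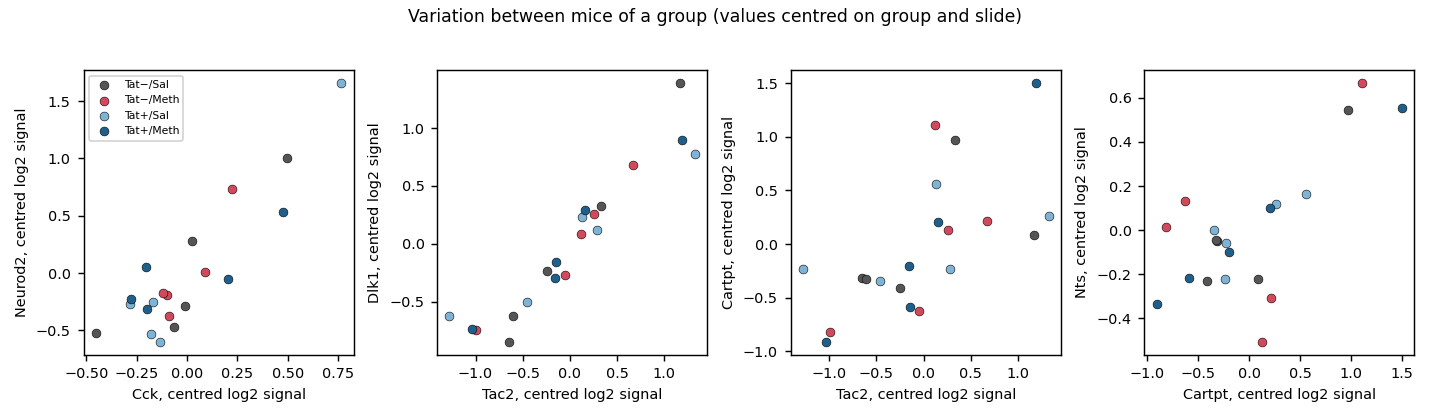
Log2 signals of 4 gene pairs on the 20 arrays, each centred on the mean of its group on its slide, coloured by group. Cck rises with Neurod2 (r = 0.89) and Tac2 with Dlk1 (r = 0.95), pairs chosen as the closest of 13981 genes, whereas Tac2 with Cartpt (r = 0.65) and Cartpt with Nts (r = 0.70) are pairs of peptide genes.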

How the data were processed

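The arrays were 1-colour Agilent expression arrays labelled with Cy3 by the labels and the file headers. The intensity values deposited by the authors are background-subtracted spot signals from Feature Extraction 10.7.3.1, whose grid lists build mm9. The methods name another dye and scanner, which the file headers do not bear out. The members, gene lists and tests were chosen with earlier results of these data known.

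Each array has 62976 spots, of which 3671 are controls. Spots marked as outliers (4278 over all arrays) were dropped, replicate spots were averaged as log2 values, and the 75th percentile of each array was brought to the mean of all arrays. Probes were named by matching their RefSeq identifiers to GRCm38.p6 symbols. The brightest probe stood for a gene, which needed 3 values in every group and a mean of 6 in at least 1 group. limma 3.58.1 in R 4.3.3 compared groups over 15098 genes in 1 fit of all 20 arrays, with Benjamini–Hochberg adjustment. Scripts were tested on simulated data. From each list, at most 3 genes past the test, those that changed most, were named per comparison, and the 3 genes most like each member. The hippocampus, thalamus, choroid plexus and oligodendrocyte marker lists were also run. In Tat−/Meth against Tat−/Sal 1 of 2, 3 of 5, 0 of 3 and 1 of 5 tested genes passed, beside 50.3% of all genes. None did in the 3 comparisons without Tat−/Meth. Replicates are separate mice by the labels, and 5 arrays per group limit the precision. The alternatives were quantile, median and no scaling, the series matrix values (7831 set to 1), normexp with an offset of 50, other filters and probe rules, slide and replicate blocks, the methods' t-test and each array left out. Correlations and motifs were computed in Python 3.11.15 (numpy 2.4.6 and pandas 2.3.3), and plots drawn in matplotlib 3.10.9.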

Additional observations from a re-analysis of the deposited data

Results flagged for a closer look

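Of 40 sets of 5 arrays (10 genes in 4 groups), 3 held an array far from the rest by Dixon's criterion, which chance passes in about 1 of 20 sets. Cck read 13.73 log2 units in Tat+/Sal replicate 1, where the next value was 12.82. Crh read 8.50 on the same array, where the next value was 6.15, and this array also had the highest Tac2 and Vip signals of its group. Nts read 10.49 in Tat−/Sal replicate 4, where the next value was 9.90.

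The effect of Meth differed between Tat+ and Tat− mice by a test of the interaction in limma for Hcrt, by 2.10 log2 units (adjusted p = 1.64e-08), and for Sst, by −0.32 log2 units (adjusted p = 0.0264). Both rest on the Tat−/Meth arrays, which cannot be told apart from slide 1.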

How the results depend on the processing

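Hcrt kept its direction and its call in all 3 comparisons that use Tat−/Meth under every alternative run, between −2.15 and −0.89 log2 units against Tat−/Sal. For the alternatives below, the share of all genes past the test was not counted, so the counts of the 10 genes cannot be set against it. The number of the 10 genes past the test in Tat−/Meth vs. Tat−/Sal was 4, beside 50.3% of all genes, and 2 with median scaling or the stricter limits of the methods. It was 5 with quantile normalization (Tac1 gained), with slide as a random block (Vip gained) and without scaling (Vip, Npy and Tac1 gained, all lower, and Sst and Nts lost), and 6 in the unadjusted t-test of the methods. The number above 2-fold was 1, 2 without scaling and 0 with normexp. In Tat+/Meth vs. Tat−/Meth 2 became 4 with quantile normalization, and in the interaction 2 became 1 with normexp or the stricter limits. With the methods' t-test, unadjusted, 1 gene passed in Tat+/Meth vs. Tat+/Sal, and 3 genes passed when either Tat+ group was set against Tat−/Sal, where limma with adjustment gave 0. The same test passed up to 3 genes of a list in these comparisons, and the share of all genes it passed was not counted. In Tat+/Sal vs. Tat−/Sal slide as a random block gave 1 of the 10 genes. With any single array left out, the count was 3 to 4 in Tat−/Meth vs. Tat−/Sal, 2 to 3 in Tat+/Meth vs. Tat−/Meth, 0 to 1 in Tat+/Sal vs. Tat−/Sal and 1 to 3 in the interaction. Without scaling, Tat−/Meth vs. Tat−/Sal turned to −0.081 for Sst, −0.071 for Chga and −0.11 for Scg2, and the interaction to 0.16 for Sst, 0.075 for Chga and 0.16 for Cadps, as the median of all genes moved from 0.14 to −0.29. With the replicate block the counts stayed at 4, 2, 0, 0, 0 and 2 over the 6 comparisons. Arrays with the same replicate number deviated together with a median r of 0.04 (−0.18 to 0.36), so the numbers were not taken to pair the mice. No pair of peptide genes passed under any alternative of the correlation test. Slide as a fixed block and within-slide fits could be made only without Tat−/Meth. Signals near background limit Vip and Crh, and the Tat−/Meth signals of Hcrt (5.52 to 6.26) were as low as those of Vip.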
